A study of Homo sapiens with 6 samples.

Results

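The regions described here are those that the authors annotated as lying in an exon in the 4 lists of RNA polymerase II (RNA pol II) occupied regions of this series. RPB1, the largest subunit of RNA pol II, and RPB1 phosphorylated on serine 2 of its C-terminal repeats (phospho-Ser2 RPB1) were immunoprecipitated from untreated HepG2 cells, an established human hepatoma line, and the bound DNA was sequenced (ChIP-seq). SHP-1 WT cells were CRISPR control cells that had received a nontargeting guide, and SHP-1 KO cells were a CRISPR knockout of the tyrosine phosphatase SHP-1 (gene PTPN6). Transfected cells were selected with puromycin and single-cell clones were then grown, so each genotype is a clonal line. There was 1 library for each antibody and cell line, and 2 input libraries served as background for calling regions. A region was taken when its annotation began with the word Exon, which gave 19922 of the 271336 regions. These were 2955 of 46045 regions for RPB1 in SHP-1 WT, 2482 of 41605 for RPB1 in SHP-1 KO, 8161 of 102674 for phospho-Ser2 RPB1 in SHP-1 WT and 6324 of 81012 for phospho-Ser2 RPB1 in SHP-1 KO. Exon regions made up 6.42% of the WT RPB1 list (95% Wilson interval 6.20 to 6.65), 5.97% of the KO RPB1 list (5.74 to 6.20), 7.95% of the WT phospho-Ser2 list (7.78 to 8.12) and 7.81% of the KO phospho-Ser2 list (7.62 to 7.99). With 1 library per group no comparison has a replicate check, no p-value is given, and every interval covers counting error only. Read counts are not part of the lists, and library depth is therefore unknown.

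RNA pol II loads at promoters, often pauses a short way into the gene, and then elongates through exons and introns to the end of the transcript. Phosphorylation of serine 2 marks the elongating enzyme and builds up toward the 3′ end of genes, where it helps to recruit splicing and 3′ end processing factors. Exons are short beside introns in most human genes, so an occupied stretch of a gene body covers an exon mostly together with its flanking introns.

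The class is narrower than its name. A region within 1000 bp of the start of the transcript to which the authors assigned it was listed as promoter, and no region with an exon label lay closer than 1001 bp to that start. Regions in untranslated regions have classes of their own, as do introns, so the Exon class holds mainly coding exons and exons of noncoding transcripts. Each region carries the name of 1 exon, also where it covers several. The nearest gene that the authors assigned was the gene of the named exon for 53.8% of exon regions in WT RPB1, 54.6% in KO RPB1, 61.4% in WT phospho-Ser2 and 61.0% in KO phospho-Ser2, so genes are given here from the transcript of the exon, found in GENCODE release 44 for 97.8% to 98.4% of regions. Measured against that release, 99.9% of the exon regions with a matching transcript touched the named exon in either RPB1 list. Of 7159 distinct inner exons, 7005 (97.8%) had AG directly before and GT directly after them on hg38. Coding bases were overlapped by 48.8% of exon regions in each RPB1 list, 58.8% in WT phospho-Ser2 and 60.3% in KO phospho-Ser2. A transcript start of release 44 lay within 1 kb of 28.8% and 28.0% of the RPB1 exon regions in WT and KO, and of 21.7% of the phospho-Ser2 exon regions in either line, since the release holds starts other than the assigned one.

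The splice acceptor of the named exon is shown for a few of the regions with the highest fold enrichment among inner exons of coding genes that lay over 1 kb from any transcript start (chosen after their values were seen), because it places the exon by which the authors named the region. The summit lay inside the named exon at STMN3 and DLL3 and outside it at the other genes shown. Each line gives 20 intron bases in lower case followed by the first 10 exon bases in capitals, 5′ to 3′ along the gene, from hg38.
STMN3 exon 4 of 5 (chr20:63642290-63642319, minus strand): cgcccgccggccccgcacagACGCAGGAGG
DLL3 exon 7 of 9 (chr19:39507019-39507048, plus strand): tgatgctcccttccccacagGCGGACTCTG
CDH15 exon 8 of 14 (chr16:89190223-89190252, plus strand): gctgtgcttccttccctcagGCCCTGGACT
ASGR2 exon 3 of 9 (chr17:7108879-7108908, minus strand): ctgatgcccctctcccacagGGCCACCTCC
ITIH2 exon 9 of 21 (chr10:7723431-7723460, plus strand): aaataccttctatttttcagGTGTTTAATG
SQSTM1 exon 6 of 8 (chr5:179833012-179833041, plus strand): ctttcctcctccgcctctagGCATTGAAGT
DIDO1 exon 7 of 16 (chr20:62896987-62897016, minus strand): gcctgtgttcttctttgtagCCACGAAGGA
PDIA4 exon 2 of 10 (chr7:149021138-149021167, minus strand): tctgggtgttttccactcagATTCTTCTAA
KANK3 exon 8 of 11 (chr19:8325087-8325116, minus strand): ggcccccttttctctcccagGGGCCTGCGA

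The first 5 exons lay under strong RPB1 regions. The WT RPB1 region on STMN3, a regulator of microtubules, had a fold enrichment over input of 38.6 and a G+C content of 72.3%, and that on DLL3, an inhibitory ligand of Notch, had 33.5 and 70.4%. The KO RPB1 region on CDH15, a muscle cadherin, reached 82.1 with 62.9% G+C. On ASGR2, a subunit of the asialoglycoprotein receptor of hepatocytes, the KO RPB1 region had 22.7 with 59.0% G+C. On ITIH2, a heavy chain of the plasma inter-alpha-trypsin inhibitors, it had 22.2 with 54.1% G+C. The last 4 exons lay under strong phospho-Ser2 regions. In WT the region on SQSTM1, an autophagy receptor, had a fold enrichment of 17.1 with 51.2% G+C, and that on DIDO1 had 16.4 with 48.2%. In KO the region on PDIA4, a disulfide isomerase of the endoplasmic reticulum, had 17.4 with 49.2% G+C, and that on KANK3 had 18.8 with 54.2%. These examples are too few to compare the antibodies. Over the whole class, the median G+C content of regions on inner exons was 59.3% and 57.1% for RPB1 in WT and KO, and 45.5% and 44.4% for phospho-Ser2 RPB1. Intron regions of the same lists had medians of 50.2%, 48.3%, 41.8% and 41.2%, in the order WT RPB1, KO RPB1, WT phospho-Ser2 and KO phospho-Ser2.

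Inner exons were the most frequent position in every list, and their share was higher for phospho-Ser2 RPB1 than for RPB1. They were named by 45.2% of exon regions in WT RPB1 (43.4 to 47.0), 43.6% in KO RPB1 (41.6 to 45.5), 58.2% in WT phospho-Ser2 (57.1 to 59.3) and 59.5% in KO phospho-Ser2 (58.3 to 60.7). Last exons of transcripts with several exons made up 26.8% (25.2 to 28.4), 27.3% (25.6 to 29.1), 21.9% (21.04 to 22.8) and 21.05% (20.1 to 22.1) in the same order. First exons made up 11.1%, 11.2%, 5.91% and 5.93%. The only exon of a transcript with 1 exon was named by 16.9%, 18.0%, 14.0% and 13.6%. Inner exons make up more of a transcript that has more exons. The median number of exons was 4 in both RPB1 lists, 7 in WT phospho-Ser2 and 8 in KO phospho-Ser2. How far the differences between the antibodies follow from this was not tested. The intervals of the antibodies did not overlap at any of the 4 positions, while those of the cell lines overlapped at every position for either antibody. These intervals treat regions of the same gene as independent. With 1 region per gene the last-exon shares of the antibodies lay closer together. They were 27.1% and 24.5% for RPB1 and phospho-Ser2 RPB1 in WT, and 27.5% and 23.9% in KO.

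**Figure D1:**
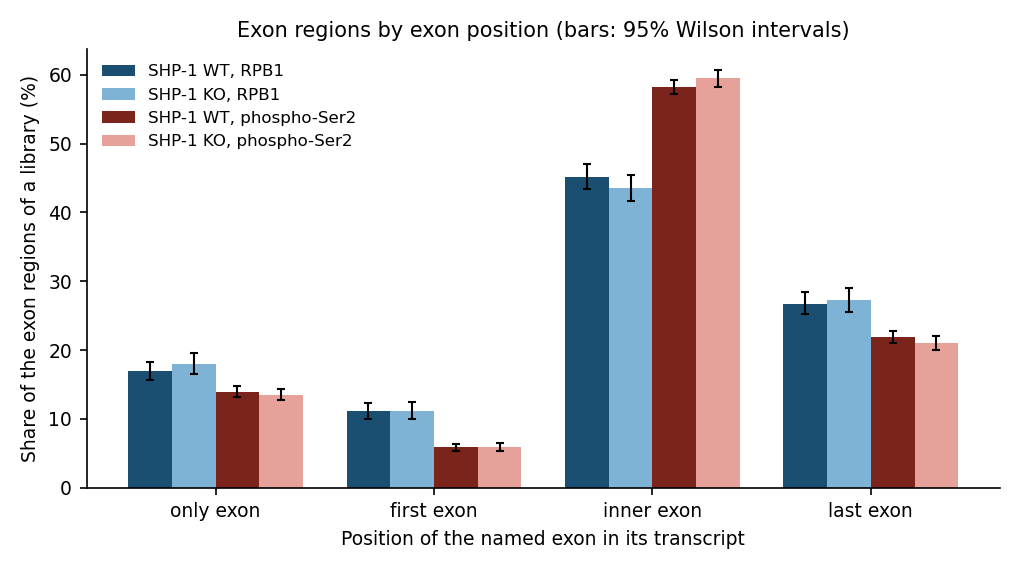
Share of the exon regions of each library (y axis, percent) by the position of the named exon in its transcript (x axis), with 95% Wilson intervals that cover counting error only. The phospho-Ser2 libraries sit higher at inner exons, 58.2% and 59.5% against 45.2% and 43.6% for RPB1, and lower at the other positions. Their transcripts also had more exons, which was not allowed for.

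Among transcripts with at least 2 exons, the last exon was named by 32.2% of regions in WT RPB1, 33.3% in KO RPB1, 25.5% in WT phospho-Ser2 and 24.3% in KO phospho-Ser2. In the annotation of the transcripts concerned, last exons were 11.8%, 12.1%, 9.90% and 9.76% of the exons by number, and 47.6%, 46.9%, 47.6% and 47.4% of the exon bases. The share of regions on last exons lay between the share of such exons by number and their share by length. The share by length counts untranslated bases, whose regions have classes of their own. A value below it therefore shows no avoidance of last exons. Most last-exon regions were not on transcripts annotated as protein coding. In WT RPB1, 29.3% of last-exon regions were on transcripts annotated as protein coding, 42.0% on long noncoding RNAs and 15.2% on transcripts with a retained intron. In WT phospho-Ser2 these shares were 22.8%, 38.2% and 18.96%. Regions on inner exons were mainly on coding transcripts, with 77.8% in WT RPB1, 79.1% in KO RPB1, 83.3% in WT phospho-Ser2 and 84.2% in KO phospho-Ser2.

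Exon numbers were higher with phospho-Ser2 RPB1, on transcripts with more exons. The median exon number was 3 in both RPB1 lists and 4 in both phospho-Ser2 lists, on transcripts with medians of 4, 4, 7 and 8 exons. Exon 1 was named by 28.0% of exon regions in WT RPB1, 29.2% in KO RPB1, 19.9% in WT phospho-Ser2 and 19.5% in KO phospho-Ser2. Exon 21 or a later one was named by 3.45%, 3.26%, 7.68% and 7.07%. Transcripts with at least 3 exons were also cut into 5 parts by exon rank relative to the number of exons. The last part held 35.04% of regions in WT RPB1, 35.4% in KO RPB1, 31.3% in WT phospho-Ser2 and 29.8% in KO phospho-Ser2. How many of a transcript's exons fall in the last part depends on its number of exons. That number differed between the antibodies, so these shares cannot order them. The highest exon number was 98 in WT RPB1, 77 in KO RPB1, 102 in WT phospho-Ser2 and 99 in KO phospho-Ser2. The median fold enrichment of the listed regions varied little with exon number. In WT phospho-Ser2 it lay between 3.77 and 3.81 in all 7 ranges of exon number examined, and in WT RPB1 between 4.90 and 5.02 in the 6 ranges beyond exon 1, where it was 5.48. In KO it lay between 3.84 and 3.95 for phospho-Ser2 RPB1 and between 4.82 and 5.28 for RPB1 in all 7 ranges. Only regions that passed the calling threshold enter these medians, so they do not measure occupancy along exons.

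The median fold enrichment of exon regions was 5.01 in WT RPB1, 5.13 in KO RPB1, 3.81 in WT phospho-Ser2 and 3.86 in KO phospho-Ser2, and their median length was 367, 353, 402 and 414 bp. First exons stood higher in the RPB1 lists, with medians of 6.46 in WT and 5.93 in KO, against 5.01 and 5.02 on inner exons. In the phospho-Ser2 lists first and inner exons had medians of 3.90 and 3.81 in WT and of 3.93 and 3.90 in KO. Of the regions on first exons, 65.9% in WT RPB1, 59.2% in KO RPB1, 50.8% in WT phospho-Ser2 and 50.7% in KO phospho-Ser2 overlapped a transcript start of release 44. On inner exons that share was between 2.68% and 3.14%.

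Summits of regions on inner exons lay mostly outside the named exon. Whether those summits fell in an intron or in another exon was not determined. Inner exons under WT RPB1 regions had a median length of 148 bp and the regions on them a median of 351 bp. The summit, the point of highest signal, was inside the named exon in 36.8% of these regions in WT RPB1 (34.2 to 39.5), 35.5% in KO RPB1 (32.6 to 38.4), 29.0% in WT phospho-Ser2 (27.7 to 30.3) and 26.4% in KO phospho-Ser2 (24.98 to 27.9). It was downstream of the exon in 38.8%, 36.8%, 36.9% and 38.7%, and upstream in 24.4%, 27.7%, 34.1% and 34.9%. The downstream share stood above the upstream share in WT RPB1 (36.2 to 41.5 against 22.1 to 26.8), in KO RPB1 (33.9 to 39.8 against 25.1 to 30.5) and in KO phospho-Ser2 (37.1 to 40.3 against 33.4 to 36.5). In WT phospho-Ser2 the intervals just overlapped, 35.5 to 38.3 downstream and 32.8 to 35.5 upstream. On last exons, with median lengths of 1090 to 1495 bp in the 4 lists, the summit was inside in 60.8% to 71.2%. Summits outside the named exon lay at medians of 114 to 129 bp from it, over all exon positions.

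Along protein-coding genes, cut into 5 parts of equal length, summits of exon regions were most frequent toward the gene end. In the first part of the gene lay 8.98% of the 1660 summits that could be placed in WT RPB1, 9.16% of 1398 in KO RPB1, 5.84% of 5427 in WT phospho-Ser2 and 5.46% of 4248 in KO phospho-Ser2. In the last part lay 33.7%, 30.8%, 36.1% and 35.9%. Exons themselves are not spread evenly, and regions near the start are classed as promoter. The annotated exons of the same genes had 18.2%, 19.1%, 17.4% and 17.8% of their number in the first part and 27.1%, 26.5%, 28.1% and 27.5% in the last. Intron regions went the other way for RPB1, with 32.3% in WT and 34.1% in KO in the first part and 12.2% and 11.9% in the last. For phospho-Ser2 RPB1 intron regions had 18.8% and 18.5% in the first part and 20.2% in the last in either line. The median distance of an exon summit from the gene start was 10.4 kb in WT RPB1, 8.99 kb in KO RPB1, 27.3 kb in WT phospho-Ser2 and 27.6 kb in KO phospho-Ser2, in genes with median lengths of 19.4, 17.2, 46.1 and 46.7 kb.

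**Figure D2:**
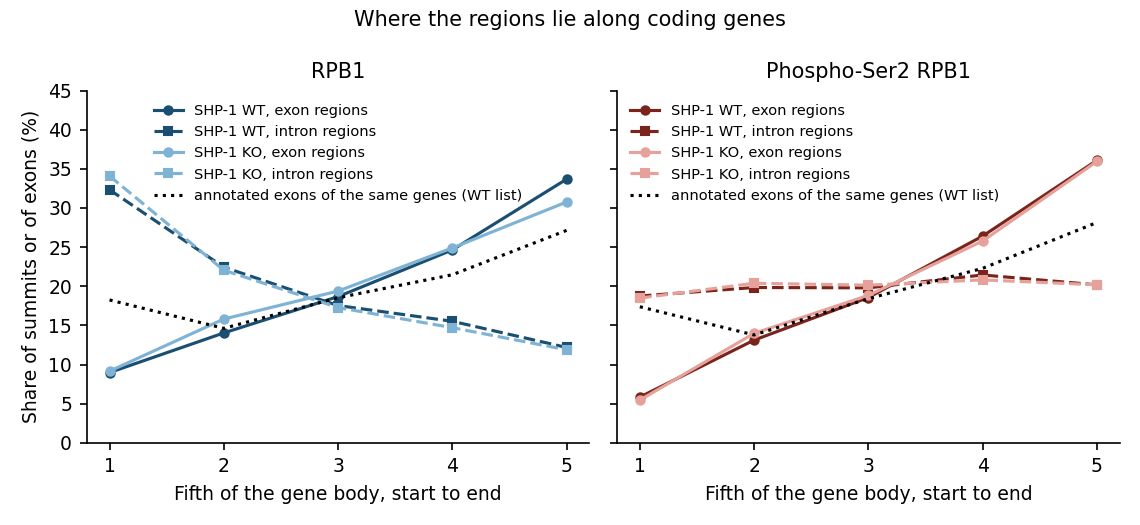
Share of summits (y axis, percent) in each of 5 equal parts of the length of protein-coding genes (x axis, start to end), for exon regions (solid) and intron regions (dashed), with the share of the annotated exons of the same genes (dotted, WT list). Exon regions climb to 33.7% (WT) and 30.8% (KO) in the last part for RPB1 and to 36.1% and 35.9% for phospho-Ser2 RPB1, above the annotated exons at 27.1% and 28.1%, while intron regions of RPB1 decline to 12.2% and 11.9%. The annotated exons were placed along all transcripts of a gene and include untranslated exons, so they are not measured like the summits.

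Coding genes held most of the exon regions, and long noncoding RNA genes held most of the remainder. Long noncoding RNA genes held 31.8% of the exon regions with a known transcript in WT RPB1, 31.8% in KO RPB1, 21.1% in WT phospho-Ser2 and 20.5% in KO phospho-Ser2, and coding genes held 60.1%, 60.0%, 70.4% and 71.2%. Regions on exons of noncoding genes were placed by their summit against coding genes. A summit near both a gene end and a gene start was counted as after the end. The shares after and before therefore cannot be set against each other. In WT phospho-Ser2, 38.0% of 2360 lay inside a coding gene, 29.7% within 10 kb after the end of one (27.9 to 31.5) and 10.3% within 10 kb before the start of one (9.09 to 11.5). In WT RPB1 these shares of 1161 regions were 26.3%, 24.03% (21.7 to 26.6) and 19.6% (17.4 to 21.9). The regions past a coding gene end had a median length of 536 bp in WT phospho-Ser2, against 379 bp for those inside a coding gene.

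The strongest exon regions differed in makeup from the rest. Among the 100 with the highest fold enrichment, 80 in WT RPB1, 80 in KO RPB1, 51 in WT phospho-Ser2 and 48 in KO phospho-Ser2 lay within 1 kb of a transcript start, against 27.0%, 25.8%, 21.4% and 21.3% of the others. Of these 100, 81, 78, 57 and 58 were on genes that do not code for protein, against 37.8%, 37.7%, 28.6% and 27.7% of the others. On inner exons were 16, 17, 44 and 39 of them, against 46.2%, 44.7%, 58.4% and 59.8% of the others. The median lengths of the 100 strongest were 1652, 1574, 4221 and 3852 bp.

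The highest fold enrichment among WT RPB1 exon regions, 73.1, was on ENSG00000279602, a single-exon transcript that needs experimental evidence according to the annotation and lies beside LINC00910 (chr17:43360454-43362489). The KO region there had 67.0, and phospho-Ser2 RPB1 had 22.4 in WT and 21.2 in KO. In KO RPB1 the highest was the CDH15 region (chr16:89188609-89192641) with 82.1, where the overlapping WT region had 87.9 and was classed as 3′ UTR. The class of this region thus differed between the lists. LINC00910 exon 6 had 59.8 in KO RPB1 and 39.1 in WT. In WT RPB1 the next were the long noncoding RNA gene ENSG00000228862 with 68.3 in WT and 51.2 in KO, ENSG00000251665 with 60.9 and 48.3, ENSG00000249456 with 60.1 and 43.8, and the first exon of a transcript of TLN2, the talin 2 gene, with 59.7 and 43.8. The noncoding transcript of ENSG00000272426 had 57.6 in KO RPB1 and 54.6 in WT. The authors assigned it to RNU1-1, a gene for the U1 RNA of the spliceosome. They gave that label also to a distant region of the same chromosome, so it does not place the transcript. A copy of the U3 small nucleolar RNA within TEX14 had 54.5 in KO RPB1 and 48.4 in WT. U3 genes have near-identical copies among which reads may be shared, so the value on U3 is uncertain.

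Strong phospho-Ser2 exon regions lay past the ends of coding genes and in 1 imprinted locus. The pseudogene ENSG00000237319, which lies after the end of ACSL4, a fatty acyl-CoA synthetase gene, had 29.7 in WT phospho-Ser2 and 14.0 in KO. ENSG00000261012, just past the end of APOB, the gene of the main LDL apolipoprotein, had 26.0 and 20.9. ENSG00000260949, past the end of EIF4EBP1, the gene of a translation repressor, had 21.1 in KO and 8.95 in WT. Exon 6 of FBXW12, in a transcript that reaches past the end of PLXNB1, had 23.4 and 23.3. A region named for exon 11 of KCNQ1 covered 34924 bp in WT with 28.5 and 58045 bp in KO with 23.3, and the gene the authors assigned was KCNQ1OT1, the antisense long noncoding RNA of that imprinted locus.

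Whether RPB1 and phospho-Ser2 RPB1 occupied the same exons was examined by overlap of at least 1 bp in the same cells. Of the RPB1 exon regions, 66.0% in WT (64.2 to 67.6) and 67.6% in KO (65.8 to 69.5) were overlapped by a phospho-Ser2 region of any class, where all regions of the lists gave 58.9% and 58.2%. Of the more numerous phospho-Ser2 exon regions, 19.6% in WT (18.8 to 20.5) and 20.6% in KO (19.6 to 21.6) were overlapped by an RPB1 region, where all regions gave 24.2% and 26.1%. When each region had to cover at least 50% of the other, the shares were 14.5% in WT RPB1, 13.98% in KO RPB1, 5.38% in WT phospho-Ser2 and 5.58% in KO phospho-Ser2. At an overlap of at least 1 bp, intron regions had lower shares than exon regions in every list, 59.6%, 60.6%, 10.6% and 11.8%. Regions in 3′ UTR had 85.4%, 87.2%, 21.7% and 23.3% at the same setting. Phospho-Ser2 exon regions with RPB1 were longer, with a median of 714 bp in WT and 757 bp in KO against 367 and 370 bp without it.

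Fewer exon regions were listed in SHP-1 KO than in SHP-1 WT, as for all classes together. The ratio of KO to WT exon regions was 0.840 for RPB1, against 0.904 for all regions, and 0.775 for phospho-Ser2 RPB1, against 0.789. Of the RPB1 exon regions, 53.2% in WT (1572 of 2955, 51.4 to 55.0) were overlapped by a region of any class in KO, and 71.3% in KO (1770 of 2482, 69.5 to 73.1) by one in WT. All regions gave 61.9% and 74.9%. Of the phospho-Ser2 exon regions, 54.5% in WT (4446 of 8161, 53.4 to 55.6) and 72.7% in KO (4600 of 6324, 71.6 to 73.8) were overlapped, and all regions gave 52.2% and 69.9%. A reciprocal overlap of 50% lowered the shares of exon regions to 25.4% in WT RPB1, 30.6% in KO RPB1, 24.5% in WT phospho-Ser2 and 32.3% in KO phospho-Ser2. The partner was itself an exon region for 81.0% of the overlapped WT RPB1 regions, 74.6% in KO RPB1, 79.1% in WT phospho-Ser2 and 77.0% in KO phospho-Ser2. By named exon, 1099 exons were shared for RPB1, 41.7% of those in WT and 50.4% of those in KO, and 3036 for phospho-Ser2 RPB1, 41.6% and 52.5%.

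Each list was cut into 4 bins of equal size by fold enrichment and, separately, by length. In the lowest bin of the WT RPB1 list by fold enrichment 32.1% of exon regions had a KO partner, and in the highest 97.9%. In WT phospho-Ser2 the shares were 40.1%, 38.6%, 52.2% and 81.6% from the lowest bin to the highest, so that the lower pair did not differ beyond counting error. In matched bins of fold enrichment exon regions of phospho-Ser2 RPB1 were overlapped more often than intron regions, for example 52.2% (50.1 to 54.3) against 44.8% (43.9 to 45.7) in the next to highest bin in WT and 72.8% (70.7 to 74.9) against 63.8% (62.7 to 64.8) in KO. They were also longer than intron regions, with medians of 402 against 307 bp in WT. In the longest bin of the WT phospho-Ser2 list the shares were 87.1% (85.8 to 88.3) for exon and 82.2% (81.3 to 83.0) for intron regions. In the shortest bin they were 27.7% (25.6 to 29.9) and 24.2% (23.5 to 24.9), and in the 2 middle bins of length their intervals overlapped, 33.7% against 34.0% and 52.5% against 51.2%. In the KO phospho-Ser2 list exon regions stood higher in each bin of length, by the least in the longest, where the intervals overlapped, with 94.1% (93.0 to 95.1) against 92.5% (91.8 to 93.1). In WT RPB1 the intervals of exon and intron regions overlapped in every bin of fold enrichment. In KO RPB1 exon regions stood higher in the lower 3 bins, with 53.1% against 41.6% in the lowest, and the intervals overlapped in the highest, with 98.1% against 99.1%.

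**Figure D3:**
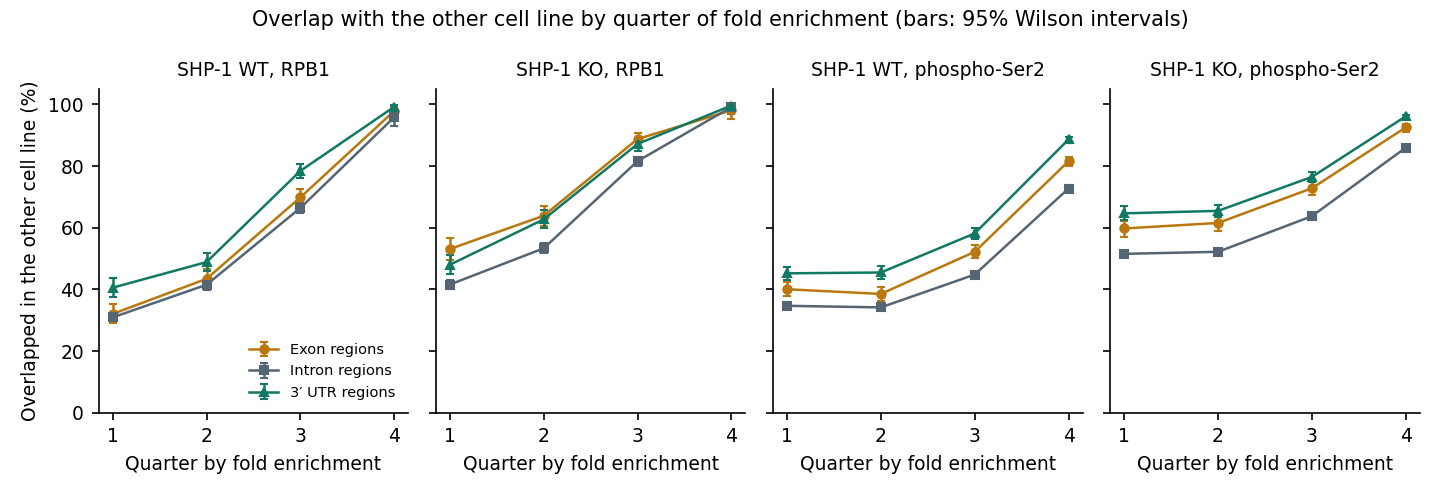
Share of regions overlapped by at least 1 bp in the other cell line with the same antibody (y axis, percent), by 4 equal bins of the library's fold enrichment from low to high (x axis), for exon, intron and 3′ UTR regions, with 95% Wilson intervals. Exon regions go from 32.1% to 97.9% in WT RPB1 and from 40.1% to 81.6% in WT phospho-Ser2, and lie above intron regions in every bin of both phospho-Ser2 libraries.

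Of the exon regions without a partner, those with the smallest q-values had fold enrichments of 1.84 to 26.3. In WT RPB1 they were on RBBP8NL exon 12 with a fold enrichment of 26.3 (chr20:62411254-62412985), the pseudogenes TPRG1LP1 with 21.5 and ALOXE3P1 with 14.0, the tyrosine kinase gene PTK6 with 12.1 and TRIM46 with 13.0. In KO RPB1 they were on the noncoding genes ENSG00000258760 with 14.2, ENSG00000251574 with 14.2 and OIP5-AS1 with 9.50, on EXD3 exon 21 with 11.6 and on the mitochondrial gene MT-CO3 with 1.84. In WT phospho-Ser2 the first was ENSG00000272088, past the end of MEGF6, with 14.8, followed by FMO5, a flavin monooxygenase gene, with 7.86, SMAP2 with 4.58, ENSG00000277999 with 8.13 and TCF7L1, a Wnt pathway transcription factor gene, with 5.21. In KO phospho-Ser2 they were SPP1, the osteopontin gene, with 7.24, RNVU1-25, a U1 variant with near-identical copies, with 8.31, the noncoding genes ENSG00000266401 with 4.60 and ENSG00000234147 with 4.63, and SEL1L, of the degradation machinery of the endoplasmic reticulum, with 6.15. These regions were chosen for having no partner, so their absence from the other list is a description.

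Most genes had 1 exon region. This was so for 73.9% of 2043 genes in WT RPB1, 72.4% of 1694 in KO RPB1, 62.1% of 4269 in WT phospho-Ser2 and 63.2% of 3424 in KO phospho-Ser2. Genes with at least 10 exon regions numbered 3, 4, 50 and 39. Because an unbroken long region counts once and a broken one several times, the share of the gene's length under regions of any class is given beside the counts.

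The gene with the most exon regions over the 4 lists was KCNQ1OT1, a gene of 103 kb. On 1 named exon it held 32 exon regions in WT RPB1, 43 in KO RPB1, 12 in WT phospho-Ser2 and 4 in KO phospho-Ser2. Its covered share was 36.0%, 32.9%, 65.2% and 62.0%, so that the counts differed more than the coverage. RELN, the gene of the secreted glycoprotein reelin, had none in either RPB1 list and 43 in WT and 24 in KO phospho-Ser2, on 41 and 23 exons of its 65, with 50.3% and 33.6% of its length covered. LRP1, a large lipoprotein receptor gene, had 4, 3, 30 and 25, with phospho-Ser2 coverage of 59.3% in WT and 36.0% in KO. ABCA1, the cholesterol exporter gene, had none for RPB1 and 30 and 27 for phospho-Ser2 RPB1, with coverage of 59.8% and 33.7%. At these 3 genes the WT coverage was the higher.

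UBR4, a ubiquitin ligase gene, had 27 phospho-Ser2 exon regions in WT and 10 in KO, with coverage of 31.1% and 11.9%. GREB1 had 22 and 19, and its coverage was higher in KO, 46.8% and 53.5%. ZMYND8, the gene of a chromatin reader, had 21 and 16 with nearly equal coverage of 56.1% and 56.6%. MAP4K4, a kinase gene, had 15 in WT and 22 in KO with 41.4% and 51.4%, and ARFGEF2, which acts in vesicle traffic, had 13 and 22 with 25.8% and 32.5%. At these last 2 genes both the count and the coverage were higher in KO. ITIH2 held 9 exon regions in WT RPB1, 14 in KO RPB1, 7 in WT phospho-Ser2 and 5 in KO phospho-Ser2, with coverage of 65.7%, 72.4%, 95.5% and 96.4%.

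**Figure D4:**
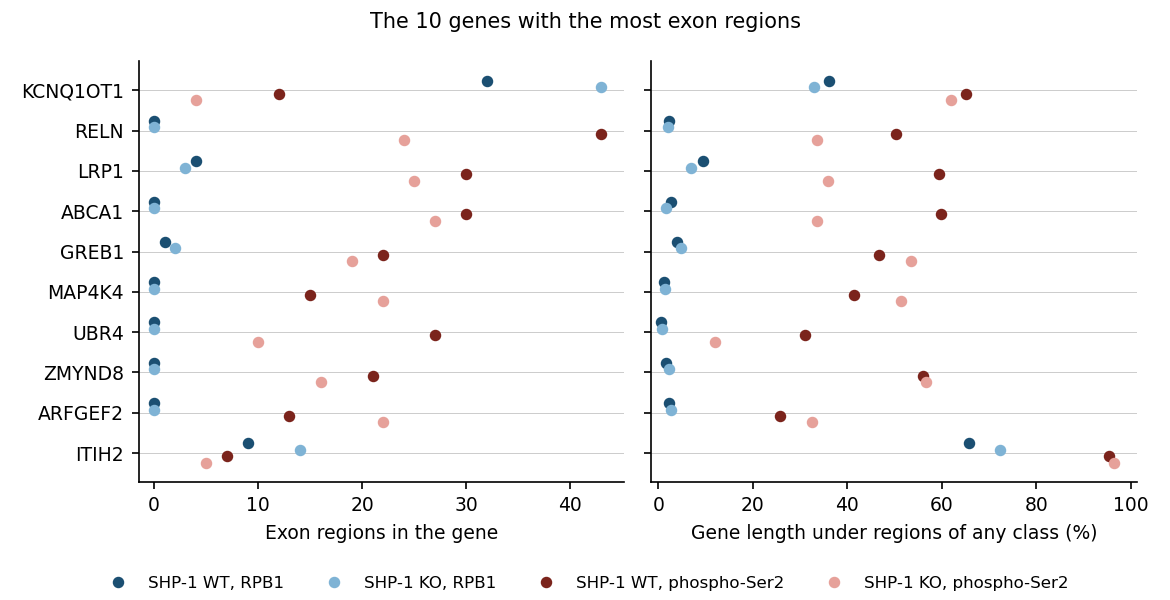
Exon regions per gene (left, x axis: number) and share of the gene's length under regions of any class (right, x axis: percent) in the 4 libraries, for the 10 genes with the most exon regions in all. Phospho-Ser2 coverage was higher in WT at RELN, LRP1, ABCA1 and UBR4 (50.3% against 33.6% at RELN) and higher in KO at GREB1, MAP4K4 and ARFGEF2, and 8 of the 10 genes had at most 4 RPB1 exon regions in either line.

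Some genes with large differences were picked out after their values were seen. MYOM3, a sarcomere gene, had 11 phospho-Ser2 exon regions in WT and 0 in KO, with 24.9% and 0.997% covered. FREM1, an extracellular matrix gene, had 22 and 12 with 56.1% and 20.1%. ITPR2, a calcium channel gene of the endoplasmic reticulum, had 13 and 3 with 19.1% and 7.37%. In the other direction FRAS1, also of the extracellular matrix, had 5 in WT and 24 in KO with 5.82% and 15.5% covered. SLC7A1, a cationic amino acid transporter gene, had 1 and 9 with 11.4% and 25.9%, and MIA2, which acts in secretion from the endoplasmic reticulum, had 4 and 11 with 15.5% and 26.4%.

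At other genes the counts differed between the cell lines more than the coverage did, or in the opposite direction. NEAT1, the long noncoding RNA of paraspeckles, had 8 RPB1 exon regions in WT and 14 in KO with 93.9% and 84.3% covered. SNHG14, a host gene of small nucleolar RNAs, had 14 phospho-Ser2 exon regions in WT and 0 in KO with 7.29% and 6.18% covered. The number of exon regions in a gene therefore did not by itself order the libraries by occupancy.

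Of all 18889 coding genes with several exons, 6.13% had an exon region in WT RPB1, 5.15% in KO RPB1, 14.2% in WT phospho-Ser2 and 11.5% in KO phospho-Ser2. Of 30 genes for plasma proteins made by the liver, 7, 12, 8 and 8 had one, and some of those without one were wholly covered. ALB, APOB, AHSG and SERPINA1 were each 100% covered by 1 region in every list, and that region was not of the exon class. FGB, the fibrinogen beta chain gene, had 2 phospho-Ser2 exon regions in WT and 0 in KO, with 87.1% and 6.73% covered. ITIH3 had 2 and 0 with 67.6% covered in WT and no phospho-Ser2 region in KO. TTR, the gene of the thyroxine carrier transthyretin, had 0 and 4 while its coverage was 100% in WT and 48.8% in KO.

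Of 20 genes known for very long exons, 5 had an exon region in each RPB1 list, 13 in WT phospho-Ser2 and 8 in KO phospho-Ser2. AHNAK had 9 phospho-Ser2 exon regions on 1 exon in WT and 0 in KO, with 17.3% covered in WT and no region in KO. KMT2D, a histone methyltransferase gene, had 3, 4, 11 and 12 with similar coverage in the cell lines, 46.6% in WT and 44.6% in KO for phospho-Ser2 RPB1. DSP, the desmoplakin gene, had 12 and 13 phospho-Ser2 exon regions with 39.3% and 26.3% covered. Of 18 genes of glycolysis and gluconeogenesis, 3, 2, 4 and 3 had an exon region. HK2, the hexokinase II gene, held most of them, with 10 in WT and 7 in KO for phospho-Ser2 RPB1 and coverage of 52.9% and 71.8%.

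The knocked-out gene PTPN6 and PCK1, the gene of a gluconeogenic enzyme named in the title of the series, had no exon region in any of the 4 lists. PTPN6 carried 1 RPB1 region in WT that covered 0.562% of it and no region in the other lists, so the lists do not check the knockout. PCK1 was covered over 24.3% of its length in WT RPB1 and 29.6% in WT phospho-Ser2, by 5 and 3 regions of other classes, and held no region in KO with either antibody.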

How the data were processed

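ChIP-seq libraries of RPB1 and of phospho-Ser2 RPB1 came from control and knockout HepG2 cells, 1 of each. The authors used Trimmomatic for trimming, BWA for alignment to hg38 and MACS2 to call narrow peaks in each library over the matching input, and the versions are not given in the sources used here. The deposited lists give each region's fold enrichment over input, a ratio, with the −log10 of its p-value and q-value, its length in bp and its annotation. The authors' deposited csaw comparison of RPB1 holds window numbers, p-values and adjusted p-values and was not used.

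Regions were assigned to exons, genes and starts with GENCODE release 44 and hg38. Overlap required 1 bp, shares carry 95% Wilson intervals, and bins of fold enrichment and length were cut over all regions of a list. No region lay beyond the end of its chromosome. Overlap and interval functions were tested on simulated data. Python 3.11.15, pandas 2.3.3, NumPy 2.4.6, SciPy 1.17.1 and matplotlib 3.10.9 were used. Depth is unknown, so precision is limited to counting error, and no test across libraries was possible.

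The members, gene lists and comparisons were chosen with earlier results of these data known. Named were the 5 exon regions of highest fold enrichment per list from different genes, the 10 genes with most exon regions, the 5 without a partner of smallest q-value per list, PTPN6, PCK1 and 3 gene lists. Some items are not reported here. Any other gene was picked once its values had been seen. Alternative settings were a higher q-value threshold, distinct intervals, main chromosomes, longer transcripts, 1 region per gene, other overlaps and, added after seeing the data, regions away from transcript starts.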

Additional observations from a re-analysis of the deposited data

How the results depend on the processing

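All values here are in the order WT RPB1, KO RPB1, WT phospho-Ser2 and KO phospho-Ser2. Restricting the lists to a −log10 q-value of at least 5 gave exon shares of 5.42, 5.11, 8.19 and 8.11 percent, last-exon shares of 25.5, 25.7, 20.3 and 19.1 percent, median fold enrichments of 6.49, 6.34, 4.57 and 4.71, overlaps with the other cell line of 70.9, 85.1, 74 and 86.3 percent and overlaps with the other antibody of 70.2, 72.5, 28.3 and 30.7 percent. Within each cell line the antibodies kept their order for all of these measures. For overlap with the other cell line, the intervals of the antibodies had overlapped in the main setting. Keeping transcripts with at least 3 exons gave last-exon shares of 24.6, 25.8, 18.8 and 18 percent. With 1 region per gene the last-exon shares were 27.1, 27.5, 24.5 and 23.9 percent and the median fold enrichments 5.36, 5.28, 4.06 and 4.09. A reciprocal overlap of 50% gave 25.4, 30.6, 24.5 and 32.3 percent for the other cell line and 14.5, 14, 5.38 and 5.58 percent for the other antibody, and asking for the summit inside the partner gave 41.5, 58.6, 41.6 and 59.6 percent and 57.4, 58.4, 12.4 and 13 percent. With exon regions as the partners only, overlap with the other cell line was 43.1, 53.2, 43.1 and 56 percent. Leaving out regions within 1 kb of a transcript start, an alternative added after seeing the data, gave last-exon shares of 31.1, 31.3, 24.7 and 23.7 percent, median fold enrichments of 5.01, 4.9, 3.79 and 3.86, and overlaps of 50.0, 68.2, 53.2 and 71.1 percent with the other cell line and 68.3, 69.7, 18 and 18.7 percent with the other antibody. Distinct intervals changed nothing, since no interval is listed more than once, and chromosomes 1 to 22 and X kept every exon share within its interval. The smaller share of overlapped regions under stricter overlaps follows from their construction, and the cause of the other shifts was not tested. No paired analysis was possible because each group is 1 library and no result comes from a test. Depth limits every comparison of counts between the cell lines, and it is unknown.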
